A study of Mus musculus with 10 samples.

Results

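Nkg7 encodes a small protein that spans the membrane of the cytotoxic granule, the secretory lysosome that killer T cells and NK cells discharge at a target cell. It was chosen by its knockout (KO) minus wild-type (WT) differences on these arrays, among the lowest of all genes in T cells that lack KLF13. It was measured by 5 of the 241576 exon-level probe sets and by 1 of the 35556 gene-level probe sets, each annotated to Nkg7 alone. As a single gene it is 1 of 19048 measured in both tables. Because that contrast chose the gene, its differences are given as descriptions, with no test.

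Splenic CD3+ T cells of male Balb/c mice, 12 weeks of age, were kept for 4 days on a coat of antibody to CD3 with antibody to CD28 in solution. The groups were 5 KLF13 KO mice (KO1 to KO5) and 5 WT mice (WT1 to WT5), named in the labels as separate mice. The labels do not say how Klf13 was disrupted, and both genotypes received the same stimulation. Replicates 1 to 3 of each genotype were deposited as exon-level log2 signals and replicates 4 and 5 as gene-level log2 signals, normalized apart. Column medians were 5.23 in KO1 and 5.21 in WT1, but lay between 6.25 and 6.43 in replicates 2 and 3 of both genotypes. Arrays were therefore compared within 3 array sets: replicate 1, replicates 2 and 3, and replicates 4 and 5. KO3 stood apart, since its interquartile range was 3.10, where the remaining exon-level arrays spanned 3.43 to 3.56. The labels describe a 3′ amplification kit primed with oligo(dT).

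Granule killing runs through a known sequence of steps. Perforin opens the membrane of the target cell, granzymes pass through and cleave proteins that start cell death, and serglycin holds them in the granule until release. NKG7 belongs to the PMP22, EMP and MP20 family of proteins with 4 membrane spans, and in mice its loss is known to impair the release of granules. KLF13 is a zinc-finger transcription factor of the Krüppel-like family, whose members bind GC-rich and CACCC sequences.

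In the RefSeq table of GRCm38.p6, Nkg7 lies at chr7:43437138-43438246. Its promoter window, 250 bases before to 50 after the gene start (plus strand, chr7:43436888-43437187), is shown because the absent factor is of the family that binds CACCC. Capitals mark each CACCC. The reverse complement, GGGTG, was searched as well and was not in the window.
Nkg7: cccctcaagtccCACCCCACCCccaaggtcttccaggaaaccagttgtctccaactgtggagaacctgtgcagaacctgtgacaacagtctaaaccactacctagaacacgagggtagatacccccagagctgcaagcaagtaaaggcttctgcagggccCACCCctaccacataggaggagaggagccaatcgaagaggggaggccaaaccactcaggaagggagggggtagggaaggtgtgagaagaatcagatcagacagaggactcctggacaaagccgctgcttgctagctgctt
The window holds 3 matches, which begin 238, 233 and 90 bases before the gene start and do not overlap. Of 32851 RefSeq promoter windows of this length, 57.5% held at least 1 match on either strand and 9.35% held 3 or more. A match to 5 letters describes the sequence and does not show a bound site.

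Klf13, the targeted gene, read 5.41 in KO1, 6.16 in KO2, 6.07 in KO3, 6.21 in KO4 and 6.46 in KO5, against 6.03 in WT1, 6.95 in WT2, 6.89 in WT3, 7.21 in WT4 and 7.54 in WT5. It fell by 0.86 ± 0.12 on the log2 scale (SE, n = 5 each, limma, adjusted p = 0.0126), a call that 7 of 22 alternative settings ended. The KO signal was 0.549 of WT. Probe sets outside a disrupted segment can still read a residual transcript. The labels do not say how Klf13 was disrupted, and whether this applies here was not tested.

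As a gene, Nkg7 had lower signal in every KO array than in the WT arrays of its set. In replicate 1 the gene value, the mean of 5 exon-level probe sets, was 6.97 in KO1 and 9.18 in WT1. In replicates 2 and 3 it was 8.41 in KO2 and 8.03 in KO3, against 10.16 in WT2 and 10.04 in WT3. In the gene-level table it was 7.69 in KO4 and 7.78 in KO5, against 10.31 in WT4 and 10.19 in WT5. The genotypes did not overlap in any set. The lowest WT value exceeded the highest KO value by 1.63 in replicates 2 and 3 and by 2.40 in replicates 4 and 5, while the 2 arrays of one genotype in one set differed by 0.09 to 0.38. Of all 12485 tested genes, 10.8% were lower in KO with no overlap in each of the 3 sets.

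With the array sets as block the KO minus WT difference was -2.20 ± 0.14 (log2, SE, n = 5 each), or 0.218 of the WT level. That is the lowest of the 12485 tested genes. Il24, a cytokine of Th2 cells, followed at -2.17, and Il21, a cytokine of follicular helper T cells, at -1.82. Within sets, Nkg7 stood in place 2 from the lowest in replicate 1, place 11 in replicates 2 and 3, and place 2 in replicates 4 and 5. KO cells kept 0.217 of the WT signal in replicate 1, 0.272 in replicates 2 and 3, and 0.175 in replicates 4 and 5. In the same 3 sets the brightest 5% of tested genes, 625 genes, had median differences of -0.19, -0.79 and -0.07, so bright signals as a whole were lower in KO arrays of replicates 2 and 3. How far this entered the Nkg7 values was not tested. In bulk RNA, fewer cells that express a gene and less RNA per cell cannot be told apart.

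Nkg7 was among the brighter genes in both genotypes. Its gene value ranked between percentiles 82.7 and 89.4 of all 19048 genes in KO arrays, and between 97.4 and 99.1 in WT arrays. These ranks depend on probe affinity as well as on transcript level. The KO signal was thus lower than in WT but not among the dim genes of the array.

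The exon-level probe sets did not all show the difference. The signal of 4 of the 5 was lower in each KO array, and that of the remaining one, 10552407, was not. Each probe set is described here on its own. Positions of the probe sets within the transcript were not used here.

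Probe set 10552408 read 8.27 in KO1, 8.51 in KO2 and 8.30 in KO3, against 10.59 in WT1, 10.66 in WT2 and 10.58 in WT3. It had the closest replicates, with a difference of -2.25 ± 0.08 (log2, SE, n = 3 each, array sets as block). No array of one genotype came within 2 log2 units of the other.

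Probe set 10552409 read 7.68 in KO1, 9.14 in KO2 and 7.70 in KO3, against 10.87 in WT1, 11.32 in WT2 and 11.28 in WT3. Its difference was -2.98 ± 0.49 (log2, SE, n = 3 each), equal to 0.127 of the WT signal. KO2 stood above the other KO arrays and still below every WT array.

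Probe set 10552410 behaved alike, with 7.26 in KO1, 8.49 in KO2 and 7.39 in KO3, against 10.32 in WT1, 11.07 in WT2 and 10.71 in WT3. Its difference was -2.98 ± 0.39 (log2, SE, n = 3 each). Probe set 10552411 read 6.80 in KO1, 8.51 in KO2 and 8.01 in KO3, against 9.62 in WT1, 10.39 in WT2 and 10.20 in WT3, a difference of -2.29 ± 0.28. In these 4 probe sets no KO array overlapped a WT array, and KO3 lay below KO2 in each.

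Probe set 10552407 read 4.86 in KO1, 7.38 in KO2 and 8.73 in KO3, against 4.49 in WT1, 7.34 in WT2 and 7.42 in WT3. Its difference was 0.57 ± 0.46 (log2, SE, n = 3 each), in the opposite direction to the others and close to its error in size. KO3 was 1.35 above the mean of WT2 and WT3, KO2 lay 0.0038 above it, and KO1 was 0.36 above WT1. In KO3 this probe set ranked at percentile 86.1 of all probe sets, against 63.3 in WT2 and 64.1 in WT3, whereas the other 4 ranked between 68.6 and 81.3 in KO3. In replicate 1 it ranked at 44.7 in KO1 and 39.7 in WT1, where the other 4 were at 71.9 to 88.6 in KO1 and 96.5 to 99.0 in WT1.

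The spread of differences among the 5 probe sets, from lowest to highest, was 3.56 log2 units. Among the 815 tested genes with 5 exon-level probe sets the median spread was 0.79 and the 95th percentile 1.78, and 4 genes, Nkg7 among them, reached 3.56 or more. Without 10552407, an alternative chosen after its values were seen, the gene value was 7.50, 8.66 and 7.85 in KO1, KO2 and KO3, against 10.35, 10.86 and 10.69 in WT1, WT2 and WT3. The difference over all 10 arrays became -2.58 ± 0.16 (SE, n = 5 each), or 0.167 of the WT level. The 3 sets then read -2.84, -2.52 and -2.51, the last from the single gene-level probe set, 10552406.

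**Figure D1:**
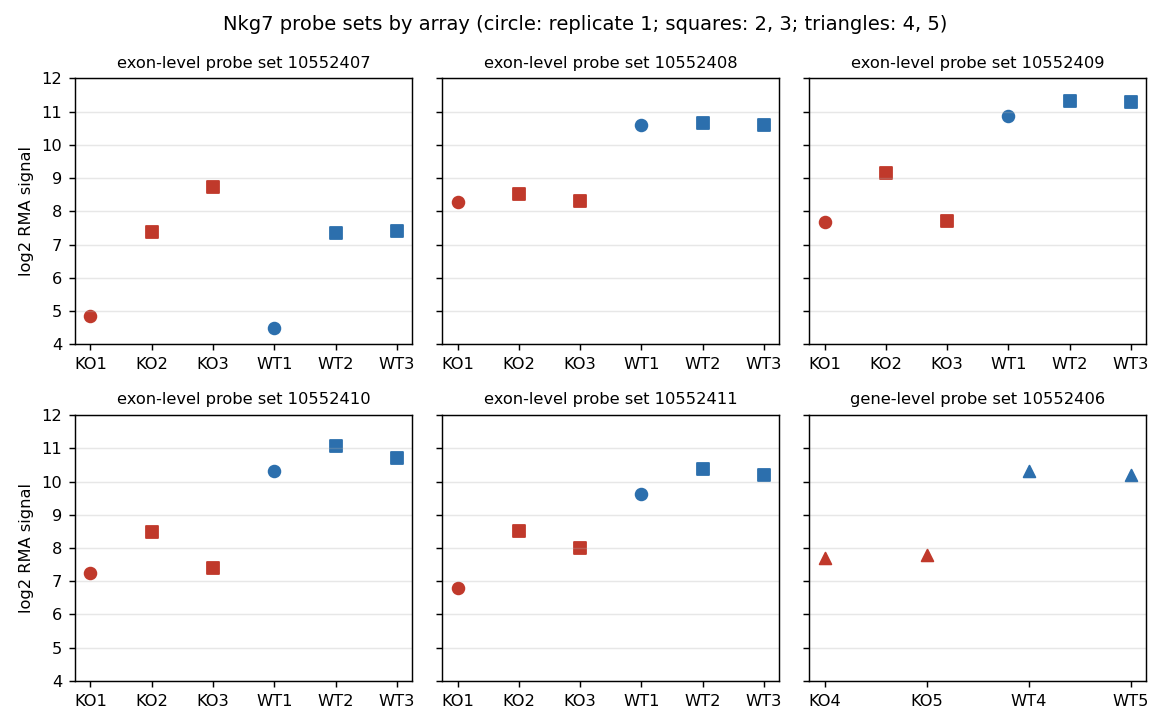
Log2 RMA signal (vertical axis) of each Nkg7 probe set in each array (horizontal axis), KO in red and WT in blue, 1 point per array. In 4 exon-level probe sets and the gene-level one every KO point lies below every WT point, while 10552407 overlaps, with KO3 at 8.73 as its highest value.

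Nkg7 was set against the granzyme and perforin genes, whose proteins share its granule. These were tested with limma over all 12485 genes, of which 0.489% were called lower in KO and 0.0961% higher. Granzyme B, Gzmb, the main granzyme of activated killer cells, read 10.95, 10.64, 11.26, 10.05 and 9.80 in KO1 to KO5, against 11.47, 11.76, 11.71, 10.66 and 10.67 in WT1 to WT5. It fell by 0.71 ± 0.14 on the log2 scale (SE, n = 5 each, adjusted p = 0.0470 in limma), to 0.611 of WT, and no KO array overlapped WT within a set. The call was lost in 18 of 22 alternatives, and with quantile normalization within sets the difference was -0.38 (adjusted p = 0.407).

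Other granzymes did not pass the test. Gzma, the second major granzyme, read 8.29 in KO1 against 8.03 in WT1, but 5.62 and 5.74 in KO2 and KO3 against 7.28 and 7.39 in WT2 and WT3. In replicates 4 and 5 it read 9.78 and 9.85 in KO, against 10.43 and 10.27 in WT. So the KO array was higher in replicate 1 and lower in the other sets, with a difference over all sets of -0.82 ± 0.24 (log2, SE, n = 5 each, limma, adjusted p = 0.194). Nkg7, by contrast, was lower by 2.20 in replicate 1, where Gzma was higher by 0.27. Whether the sets differ was not tested.

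Gzmd, a granzyme of the cluster expressed after strong activation, had the lowest difference among granule genes, -1.39 ± 0.33 (log2, SE, n = 5 each, limma, adjusted p = 0.108). WT5, at 4.26, lay 2.05 below WT4 and close to 3.77 in KO4 and 3.79 in KO5. Without WT5 the adjusted p was 0.0441, the only 1 of 21 alternatives that passed. Gzmc, of the same cluster, was at -0.76 ± 0.16 (adjusted p = 0.0636) and did not overlap within any set. Genes of this cluster are alike in sequence, so that their probe sets may share signal. Gzmm, a granzyme of innate-like lymphocytes, was at -0.02 (adjusted p = 0.925). The exon-level probe sets of the granzymes also differed among themselves. Lower in KO were 4 of 5 in Gzmd (-2.43 to 0.58), 4 of 5 in Gzmc (-1.39 to 0.62) and 3 of 7 in Gzmm (-0.21 to 0.40). All were lower in Gzma (4 probe sets, -1.45 to -0.14) and Gzmb (7 probe sets, -1.49 to -0.01).

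Prf1, the perforin gene, read 7.16 in KO1 against 7.16 in WT1, 7.19 (KO2) and 6.89 (KO3) against 7.72 (WT2) and 7.86 (WT3). In the gene-level table it read 8.01 (KO4) and 8.29 (KO5) against 8.51 (WT4) and 8.32 (WT5). The genotypes were level in replicate 1 and close in replicates 4 and 5, with a difference over all sets of -0.41 ± 0.15 (log2, SE, n = 5 each, limma, adjusted p = 0.259). In those same sets Nkg7 was at -2.20 and -2.51.

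Across the 10 arrays the values formed a KO and a WT cluster on the Nkg7 axis, at -1.30 to -0.75 in KO and 0.88 to 1.32 in WT after each set's mean was subtracted. With 5 arrays in a cluster, the relation of Nkg7 to granzyme level apart from genotype was not tested. The r values given below for likeness pool both genotypes and mainly read the gap between them. Within a genotype and set there are 4 pairs of arrays. Gzmb had the order of Nkg7 in 1 of these 4 pairs, Gzma, Gzmc and Gzmm in 2, and Gzmd and Prf1 in 3. Some gaps behind these orders were near 0, such as -0.0043 for Gzmb and 0.002 for Gzmm in WT4 minus WT5. For Nkg7, KO4 minus KO5 was -0.0893, so the counts are a description only. KO2 had the highest centred Nkg7 value of the KO arrays, -0.75, and the lowest centred Gzmb value, -0.70. It shares its set with KO3, the array that stood apart.

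**Figure D2:**
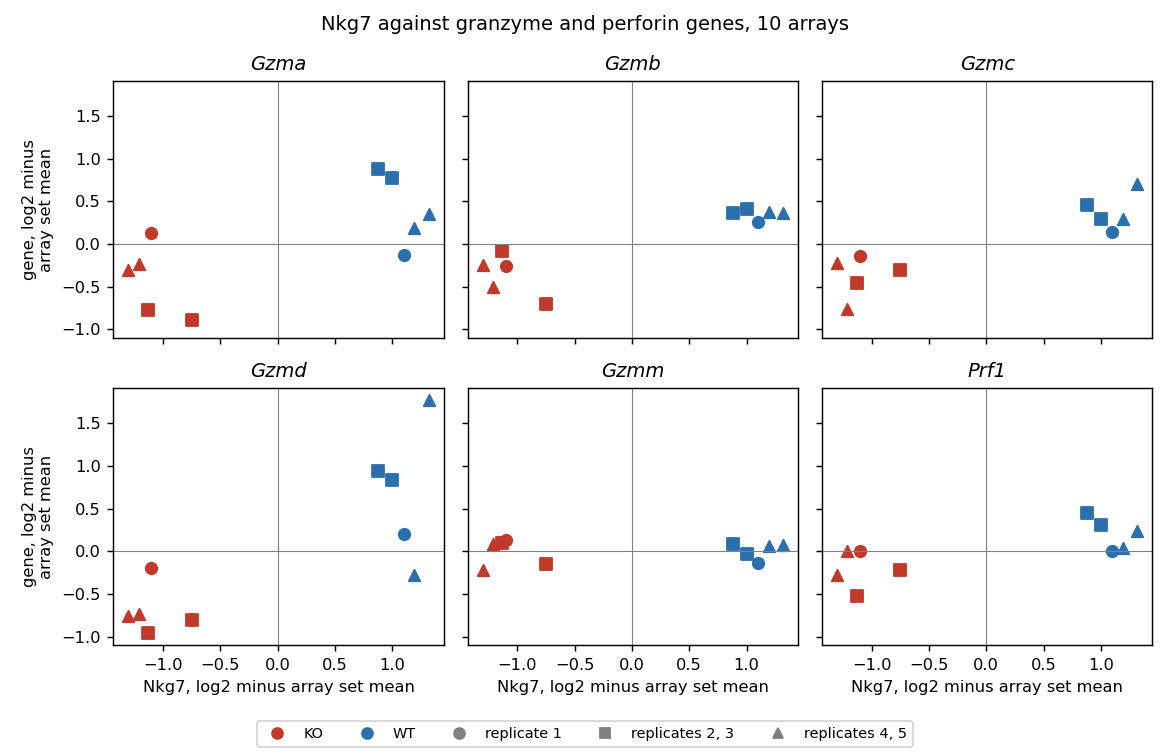
Each panel plots 1 gene (vertical axis, log2 minus the mean of its array set) against Nkg7 on the same scale (horizontal axis), 1 point per array, with KO red and WT blue and the symbol giving the replicates. KO and WT form separate clusters along Nkg7, from -1.30 to -0.75 and from 0.88 to 1.32. Gzmb has the order of Nkg7 in 1 of 4 pairs of arrays within a genotype and set. Its gap in WT4 minus WT5 is only -0.0043.

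The wider list of granule genes was also read beside Nkg7, which is not counted in it. Of 29 members 24 were bright enough to be tested, and Gzme, Gzmf, Gzmg, Gzmk and Gzmn were not. Limma called 1 of the 24, Gzmb, and 12 had an unadjusted p under 0.05, beside 1866 of all 12485 genes. All 24 values were below 0, with a median of -0.33, where 63.5% of all tested genes were below 0 with a median of -0.10. Without the filter 27 of the 29 were below 0, where 47.9% of all genes were. The 2 above 0 were Gzmk at 0.10 and Gzmn at 0.08. Among genes above the 50th percentile filter 80.4% of all were below 0, with a median of -0.18, and the 20 granule genes left had a median of -0.39. The list medians were -0.13 in replicate 1, -0.58 in replicates 2 and 3 and -0.24 in replicates 4 and 5, where 4 of 24 were above 0. T cell markers averaged -0.35, -0.89 and 0.05 in the same 3 sets, beside the bright-gene medians given above, and the part of either in the list's values was not tested. After quantile normalization within sets 23 of 24 were below 0 and the median was -0.26, beside -0.03 for all genes. Of the 24 genes 7 were lower in KO with no overlap in each set, 29.2% beside 10.8% of all tested genes.

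Among the carriers and enzymes of the granule, Srgn, serglycin, was at -0.83 ± 0.26 (log2, SE, n = 5 each, limma, adjusted p = 0.223), but at -0.10 in replicates 4 and 5. Cst7, cystatin F, an inhibitor of granule cathepsins, was at -0.46 (0.206), and the cathepsins Ctsc, which activates granzymes, and Ctsw at -0.29 (0.425) and -0.19 (0.562). The lysosomal membrane proteins Lamp1 and Lamp2 were at -0.37 (0.235) and -0.46 (0.298). Ctsl, a lysosomal protease, was at -0.20, and the nucleoside transporter Slc29a3 at -0.05.

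Genes of granule release were also below 0 without passing the test. Rab27a, the GTPase that docks granules, was at -0.18, the priming factor Unc13d at -0.29, and the fusion proteins Stx11, Stxbp2 and Vamp7 at -0.15, -0.28 and -0.29. Sytl2, a Rab27 effector, was at -0.15, and Lyst, which sets the size of lysosomes, at -0.71 ± 0.35, with -1.77 in replicates 2 and 3 but 0.18 in replicates 4 and 5. The death ligand Fasl was at -0.03. Of the granzyme inhibitors, Serpinb9 was at -0.48 (adjusted p = 0.257) and Serpinb6b at -0.52 (0.194).

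In a fit of replicates 4 and 5 alone limma called 4 of the 24 lower, where 1.99% of all tested genes were called lower. They were Gzmb (-0.74, limma, adjusted p = 0.0248), Gzmc (-0.99, 0.0353), Serpinb9 (-0.79, 0.0172) and Serpinb6b (-0.96, 0.0102). In those arrays the Nkg7 difference was -2.51.

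**Figure D3:**
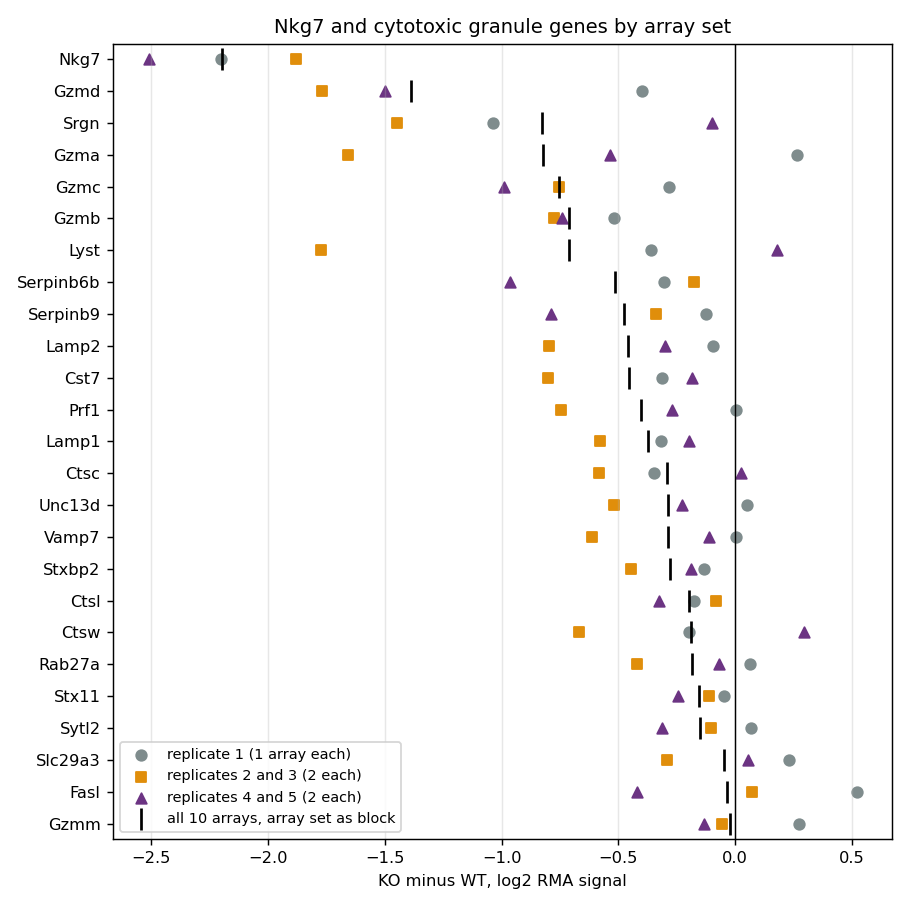
KO minus WT differences in log2 RMA signal (horizontal axis) of Nkg7 and the 24 tested granule genes (rows), with 1 symbol per array set and a bar for all 10 arrays. The 3 sets of Nkg7 lie between -2.51 and -1.88, and the set nearest to 0 is at -0.52 in Gzmb and closer to 0 in every other granule gene shown.

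Of 14 tested regulators, effectors and receptors of the cytotoxic program, 8 were lower and 6 higher, or 57.1% lower, with a median of -0.09, close to the 63.5% and -0.10 of all tested genes. Limma called 1 of the 14, where 0.585% of all tested genes were called. This was Id2, an inhibitor of E proteins needed by effector CD8 T cells, which fell by 0.97 ± 0.16 (log2, SE, n = 5 each, adjusted p = 0.0306), a call lost in 13 of 22 alternatives. The T-box factors Tbx21 and Eomes, which drive cytotoxic genes, were at -0.08 and 0.02, and Runx3, the factor of CD8 T cells, at 0.04. Prdm1, a repressor active in terminal effector cells, was at -0.68 (adjusted p = 0.0725) and Zeb2 at -0.10.

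Effector and receptor genes went both ways. Ifng, the Th1 cytokine, was at -0.30, and the chemokines Ccl3, Ccl4, Ccl5 and Xcl1 were at -0.55, -0.15, -0.18 and 0.17, none past the threshold. The killer cell receptor genes Klrd1, Klrk1 and Klrc1 were at 0.81 (limma, adjusted p = 0.101), 0.74 (0.0897) and 0.63 (0.269), opposite to Nkg7. Without KO3 the first 2 passed (limma, adjusted p = 0.00944 and 0.0285), for each the only 1 of 22 alternatives that did. In that setting limma called 362 of all tested genes, 103 of them higher, beside 73 and 12 in the main setting.

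Cd8a and Cd8b1, the chains of the CD8 coreceptor, were at -0.19 (limma, adjusted p = 0.597) and 0.02 (0.932), and Cd4 was at -0.27 (0.438). The 6 CD3 and T cell markers in both tables had median ranks of percentile 98.3 to 98.9 in KO arrays and 98.5 to 98.8 in WT arrays. Their mean difference was -0.40, with -0.89 in replicates 2 and 3 and 0.05 in replicates 4 and 5, and limma called 0 of 6. Of 7 NK cell markers 6 were too dim to be tested, and the median of the 7 ranked at percentile 7.36 to 18.1 in KO and 7.82 to 16.9 in WT. Most of the 7 lay near the lower end of the signal range, so their values say little about NK cell content. The marker of NKT cells, Zbtb16, ranked at percentile 39.4 to 52.9 in KO and 51.3 to 57.6 in WT, with a difference of -0.36 (adjusted p = 0.274), and its part in the Nkg7 values was not tested.

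The chromosomal surroundings of Nkg7 were read next, because Klf13 lies on the same chromosome, 20.4 megabases away. The 10 nearest tested genes on each side had a median difference of -0.06, with 12 lower and 8 higher. Among all tested genes the median was -0.10 and 63.5% were lower. These 20 genes run from chr7:37959992 (Uri1) to chr7:43803826 (Klk8), whereas Klf13 starts at chr7:63886351. Most of the stretch between Nkg7 and Klf13 is therefore not covered. Limma called 1 of the 20, Etfb, where 0.585% of all tested genes were called in either direction. An unadjusted p under 0.05 was found in 5 of the 20, beside 1866 of all 12485 genes. Lower in KO with no overlap in each set were 4 of the 20, or 20%, beside 10.8% of all tested genes.

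The nearest genes downstream, Cldnd2 and Etfb, had values below 0. Cldnd2, with 2493 bases between it and Nkg7, read 3.34, 4.95, 5.26, 3.28 and 3.48 in KO1 to KO5, against 4.30, 5.20, 5.50, 4.98 and 4.22 in WT1 to WT5. Its difference was -0.78 ± 0.20 (log2, SE, n = 5 each, limma, adjusted p = 0.152), with overlap in replicates 2 and 3 alone. Without KO3 the adjusted p was 0.015. Cldnd2 encodes a claudin domain protein, and its annotated span overlaps the start of Etfb.

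Etfb, a subunit of the electron transfer flavoprotein of mitochondria, read 7.71, 8.96, 8.42, 7.38 and 7.29 in KO1 to KO5, against 8.40, 9.35, 9.64, 7.95 and 8.05 in WT1 to WT5. It fell by 0.72 ± 0.13 on the log2 scale (SE, n = 5 each, limma, adjusted p = 0.0371), with no overlap within sets, and 14 of 22 alternatives ended the call. Upstream, Lim2, the lens protein MP20, ends 1141 bases before Nkg7 and was at 0.13 (adjusted p = 0.560). Siglecg, an inhibitory lectin of B cells and the next tested gene, was at 0.10.

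**Figure D4:**
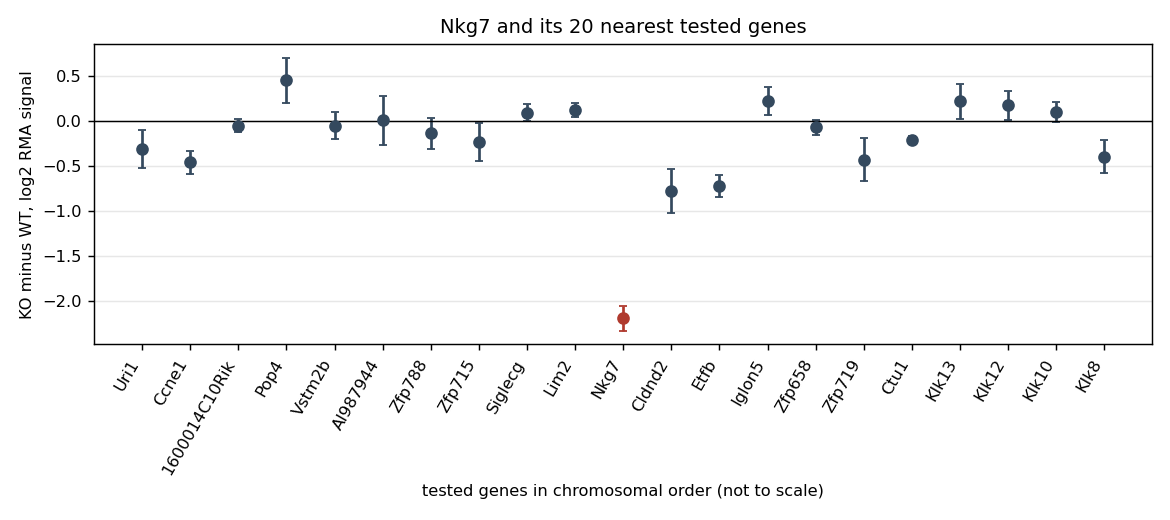
KO minus WT difference in log2 RMA signal (vertical axis, 10 arrays with array sets as block, bars are the standard error of each gene) for Nkg7 in red and the 10 nearest tested genes on each side, in chromosomal order. Nkg7, at -2.20, lies below its neighbours, of which Cldnd2 and Etfb are the lowest at -0.78 and -0.72.

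Lim2 and Cldnd2 are also relatives of Nkg7 in sequence family, beside Pmp22, Emp1, Emp2, Emp3 and Cldnd1. Of these 7 genes limma called 0, with 2 at an unadjusted p under 0.05, Cldnd2 and Emp3. Emp3, a membrane protein with 4 spans, was at 0.53 ± 0.15 (log2, SE, n = 5 each, limma, adjusted p = 0.189). It was higher by 0.12 in replicate 1, 0.44 in replicates 2 and 3 and 0.83 in replicates 4 and 5. Of the 7 genes 2, Emp2 and Emp3, were higher in KO with no overlap in each set, beside 1.63% of all tested genes. In replicate 1, with 1 array of each genotype, Emp2 was higher by only 0.0062. In a fit of replicates 4 and 5 alone limma called Emp3 higher (adjusted p = 0.0126). In the same 4 arrays Cldnd2 fell (-1.22, limma, adjusted p = 0.0243), where 0.721% of all tested genes were called higher and 1.99% lower. Pmp22, the myelin protein, Emp1 and Cldnd1 were at 0.04, 0.03 and -0.10, and Emp2 at 0.25.

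Genes with a pattern like that of Nkg7 were ranked by Pearson r over the 10 arrays after each set's mean was subtracted, as a description. The measure mainly reads the gap between genotypes relative to the spread, and the genes share the same arrays. The 8 highest were S100a6, a calcium-binding protein (r = 0.988), Ctla2a, a cathepsin inhibitor of activated T cells (0.983), Fam162a, a mitochondrial protein (0.978), Tnfrsf8, the CD30 receptor (0.975), Ly6e (0.971), Tnfrsf23, a decoy receptor (0.969), Slc17a6, a glutamate transporter (0.968), and Lrp8, a lipoprotein receptor (0.968). Their differences ran from -1.46 for Slc17a6 to -0.53 for Ly6e.

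S100a6 read 4.49, 5.20, 5.13, 4.59 and 4.46 in KO1 to KO5, against 5.27, 5.77, 5.86, 5.58 and 5.38 in WT1 to WT5. Ctla2a read 6.34, 6.39, 5.58, 5.42 and 5.62 in KO1 to KO5, against 7.75, 7.38, 7.25, 7.07 and 7.14 in WT1 to WT5. Neither overlapped within a set, which the ranking favours, and KO3 lay below KO2 in Ctla2a as it did in Nkg7. Klf13 itself was in place 10 by this measure (r = 0.966).

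Granule genes ranked lower in likeness to Nkg7, from Gzmc in place 167 (r = 0.887) to Gzmm in place 7396 of 12484. Gzmb was in place 222 (0.871), Gzmd in 575 and Gzma in 1583. Serpinb6b was in place 261, Lamp1 in 566, Fasl in 6897 and Slc29a3 in 6993. At the other end were Slc6a16 (r = -0.967), Serf1 (-0.956), Dapl1 (-0.955) and Alpl (-0.952). Dapl1 was higher in every KO array than in the WT arrays of its set, where 1.63% of all tested genes were. The ranking that picked Dapl1 favours such separation, so it is a description only.

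**Figure D5:**
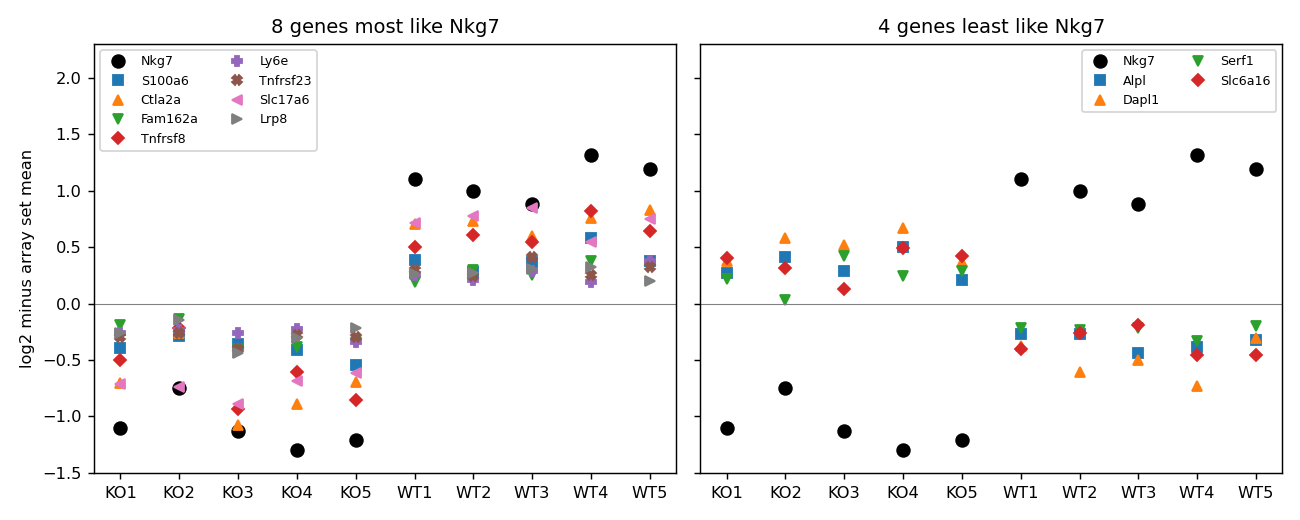
Log2 signal minus the array set mean (vertical axis) in each array (horizontal axis) for Nkg7 in black with the 8 most like and, at right, the 4 least like genes. The 8 genes lie below 0 in all KO arrays and above 0 in all WT arrays, and the 4 least like genes do the reverse. The ranking by r to Nkg7 favours such genes.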

How the data were processed

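Both tables were deposited by the authors as log2 signals, made with RMA per the submitters' processing notes, which give no version here. Probe sets were named from the platform annotation, with symbols updated through the RefSeq table of GRCm38.p6, and probe sets lacking a single gene were not used. Exon-level probe sets of a gene were averaged, and the brightest gene-level probe set was used. A gene was tested if its mean log2 signal reached the 30th percentile in both tables, which left 12485 of 19048 genes for limma 3.58.1 in R 4.3.3 (two-sided, Benjamini-Hochberg, adjusted p under 0.05), with the 3 array sets as block. The fit was checked on simulated data with errors independent between genes and arrays, so the check does not cover effects that span an array. The number of arrays limits the precision.

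Nkg7, the lists and the block were chosen with earlier results of these data known. Named genes were Nkg7, Klf13, the listed genes, the nearest and called flanking genes, and the 8 most and 4 least like Nkg7. Il24, Il21 and Siglecg were named after their values were seen.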

Additional observations from a re-analysis of the deposited data

How the results depend on the processing

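The Nkg7 difference lay between -2.58 and -1.99 over all settings run. It was -2.56 with the median of exon-level probe sets, -2.51 in the gene-level table alone, -2.42 with median and quantile normalization together (chosen after seeing the data), and -2.58 without probe set 10552407. Leaving out single arrays moved it between -2.30 and -2.13. The count of called genes in limma, 73, became 4 with the 2 tables as block, 23 with the replicate number as block, 31 with the median of probe sets, 37 with median and quantile normalization (13 higher and 24 lower, beside 12 and 61), 339 in the gene-level table alone and 0 in the exon-level table alone (1019 at an unadjusted p under 0.05). It ranged from 12 without KO4 to 362 without KO3, and was 28 without KO1 or WT1, 18 without KO5, 15 without WT2, 13 without WT3, 14 without WT4 and 25 without WT5. Within sets, deviations of same-numbered KO and WT arrays from their genotype means had r of -0.42 and -0.24 over genes. With 2 arrays of a genotype in a set, such an r cannot show whether same-numbered arrays were pairs. The numbers were not taken as pairs in the main setting. Of the granule genes, 1 in the main setting, limma called 4 in the gene-level table and 0 to 2 without single arrays. It called 0 with tables as block, replicate block, quantile normalization, median centring, the median of probe sets, or no filter. Trend and robust, the exon-level table, and median and quantile normalization also gave 0. In all settings 6 to 15 had an unadjusted p under 0.05. The lowest was 6 of 24 with tables as block, where 182 of all 12485 genes had such a p. The highest was 15 of 29 with no filter, where 2286 of all 19048 genes did. Of the flanking genes, also 1 in the main setting, limma called 3 in the gene-level table and 0 to 4 without single arrays. It called 0 with tables as block, replicate block, the median of probe sets, or trend and robust. The exon-level table, and median and quantile normalization, also gave 0. Over all settings 2 to 7 had an unadjusted p under 0.05. The lowest was 2 of 20, with tables as block (182 of all 12485 genes) and in the exon-level table (1019 of 12485). The highest was 7 of 20 without KO3, where 2463 of all 12485 genes had such a p. Gzmb, Id2, Etfb, Klf13, Gzma, Gzmc, Gzmd, Prf1, Prdm1, Cldnd2, Klrd1 and Klrk1 kept their direction wherever tested, while Gzmm, near 0, took both signs. The causes were not tested.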
